A study of Mus musculus with 23 samples.

Results

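Of the 19899 genes tested in livers of furan-treated mice, 9 are described here: Ncmap, Fibin, Nxpe2, Tlr5, Elac1, Kcnk10, Apol7b, Unc79 and Fzd8. They were chosen by the log2 difference between the 8 mg/kg livers and the vehicle controls, as the largest falls that lay outside known pathways. That difference is therefore given as a description, with no test. Each is represented by 1 probe, the brightest of its gene, and Ncmap has a second one, so that 10 probes carry the 9 genes.

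Livers came from female mice of the B6C3F1 hybrid, a common strain of carcinogenicity studies, bought at 5 to 6 weeks of age and acclimatised before dosing. All animals were gavaged for 21 days with corn oil, which held furan at 1 mg/kg body weight in 4 mice, 2 mg/kg in 5, 4 mg/kg in 4 and 8 mg/kg in 5, while 5 control mice received the oil alone. Tissue was taken 4 h after the last dose. RNA of each of the 23 livers was labelled with Cy5 and hybridised on a 2-colour Agilent array against a universal mouse reference RNA labelled with Cy3, without a dye swap. Values are log2 ratios of liver to reference after normalisation within the array, and differences are between group means ± standard error (SE). Whole liver was measured, so fewer cells of a type and less RNA per cell cannot be told apart.

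The 9 genes belong to different systems. Toll-like receptors sense microbial molecules, and Tlr5 binds bacterial flagellin and signals through the adaptor Myd88. Frizzled proteins such as Fzd8 receive Wnt ligands, which set the zonation and growth of liver. Kcnk10 forms a background potassium channel of the two-pore-domain class, and Unc79 is a partner of the sodium leak channel NALCN, which is known mainly from neurons. Ncmap is a membrane protein of the non-compact myelin of Schwann cells. Elac1 is an enzyme that, in human cells, repairs the cleaved end of transfer RNAs released from stalled ribosomes. Apol7b belongs to the apolipoprotein L family. Fibin was named for its part in fin bud initiation in zebrafish, and Nxpe2 is a member of the neurexophilin and PC-esterase domain family.

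The promoter entries of RefSeq on assembly GRCm38.p6 covered 7 of the 9 genes. The 250 bases before the start site are printed for 4 of them: Tlr5, which stood below control at every dose, Apol7b, which stood lower at each dose than at the one before, and Ncmap and Kcnk10, which moved together most closely among the animals given 1 to 4 mg/kg. For Ncmap and Kcnk10 the upstream one of their start sites is shown. Capitals mark matches to the CCAAT box (CCAAT) and the GC box (GGGCGG) on either strand.
Tlr5, chr1:182954538-182954787, plus strand: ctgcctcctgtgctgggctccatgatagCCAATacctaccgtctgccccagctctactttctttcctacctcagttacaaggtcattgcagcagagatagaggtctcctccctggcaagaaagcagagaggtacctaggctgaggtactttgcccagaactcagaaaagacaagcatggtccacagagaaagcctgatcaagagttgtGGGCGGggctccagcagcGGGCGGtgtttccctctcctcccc
Apol7b, chr15:77447461-77447710, minus strand: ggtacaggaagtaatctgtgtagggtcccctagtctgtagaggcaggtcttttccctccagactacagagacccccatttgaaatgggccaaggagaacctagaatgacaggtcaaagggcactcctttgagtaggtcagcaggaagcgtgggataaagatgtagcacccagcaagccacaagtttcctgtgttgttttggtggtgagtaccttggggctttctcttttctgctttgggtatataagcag
Ncmap, chr4:135398228-135398477, minus strand: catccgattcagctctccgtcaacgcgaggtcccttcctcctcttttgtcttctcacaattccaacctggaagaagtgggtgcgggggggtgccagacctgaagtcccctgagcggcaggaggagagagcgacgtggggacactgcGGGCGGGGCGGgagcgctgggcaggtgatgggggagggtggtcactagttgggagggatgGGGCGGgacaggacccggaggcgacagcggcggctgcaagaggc
Kcnk10, chr12:98578214-98578463, minus strand: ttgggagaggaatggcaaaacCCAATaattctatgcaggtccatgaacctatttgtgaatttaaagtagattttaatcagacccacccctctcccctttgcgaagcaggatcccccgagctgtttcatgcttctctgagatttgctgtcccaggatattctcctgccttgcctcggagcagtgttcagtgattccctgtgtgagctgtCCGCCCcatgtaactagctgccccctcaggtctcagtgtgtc

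In all, 7 motifs were searched on both strands of the windows of all 9 entries, printed or not. The CCAAT box was found in 3 of the 9 entries of the 7 genes, in Tlr5, Ncmap and Kcnk10, against 33.8% of all 32851 promoters. For Ncmap this match lay in the entry of the other start site, and the printed Ncmap window held none. The GC box was found in 3 entries of the same 3 genes, against 32.7%. The letters of the TATA box (TATAAA, 12.4% of promoters), E-box (CACGTG, 6.02%), AP-1 site (TGANTCA, 6.75%), antioxidant response element core (TGACNNNGC, 10.2%) and HNF4 core (CAAAGTC, 3.84%) were in none of the 9 windows. No match of one motif overlapped a match of another, although the first and second GC box of Ncmap overlap each other. The Apol7b window held none of the 7 as written here, and variants of these letters were not searched.

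Per array, 22011 to 30120 probes had signal well above background, 0 Cy5 probes were saturated, and the residual SD of a gene had a median of 0.236 on the log2 scale. Hepatocyte markers stood 6.78 to 8.21 log2 units above the reference in control livers. Of 7 pancreatic markers, 3 were tested, and these were well above background on all 5 control arrays too. Their mean score passed 1.5 on 4 arrays, called rich in pancreatic transcripts here. It was 2.24 and 1.90 in the 2 mg/kg livers numbered 1 and 5. It was 2.50 in 4 mg/kg replicate 1 and 1.62 in 8 mg/kg replicate 5. The neutrophil score was 3.62 in 2 mg/kg replicate 4. These scores are mean log2 differences from the control mean. Their part in the results was not tested, and the slopes are also given without those arrays.

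At 8 mg/kg the 9 genes stood 2.09-fold (Fzd8) to 2.72-fold (Ncmap) below control, with a median log2 difference of -1.14, against -0.027 over all genes. The lowest control lay above the highest 8 mg/kg animal for 9 of 9 genes, where 4.32% of all genes had such a gap. Nothing is read from that count, because the same comparison chose the genes. Over all genes 1593 were called (limma, adjusted p under 0.05), 845 higher and 748 lower (3.76% of all genes), so that 47.0% of calls were lower. That share was 36.9% with uncorrected median signals, 30.6% with normexp correction and 26.5% without loess. Ordered by the size of the fall among genes with a symbol, the 9 stood between rank 11 (Ncmap) and rank 38 (Fzd8). Their neighbours in that order began with Bmf at -1.48 ± 0.27, Chac1 at -1.44 ± 0.29, Nat1 at -1.29 ± 0.77 and Icos at -1.26 ± 0.64. Then came Fabp3 at -1.21 ± 0.87, Ggnbp1 at -1.15 ± 0.31, Smad9 at -1.11 ± 0.20, Cphx1 at -1.08 ± 0.48 and Htra4 at -1.05 ± 0.58. Of these neighbours Nat1, Icos, Fabp3, Cphx1 and Htra4 were not called. Bmf fell further than any of the 9, and Chac1 further than all of them but Ncmap. Neither was among the 9, so that size alone did not set the choice. Fzd8, at -1.06, had the smallest fall of the 9. Without the arrays rich in pancreatic transcripts the 9 differences ran from -1.10 for Elac1 to -1.41 for Ncmap.

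**Figure D1:**
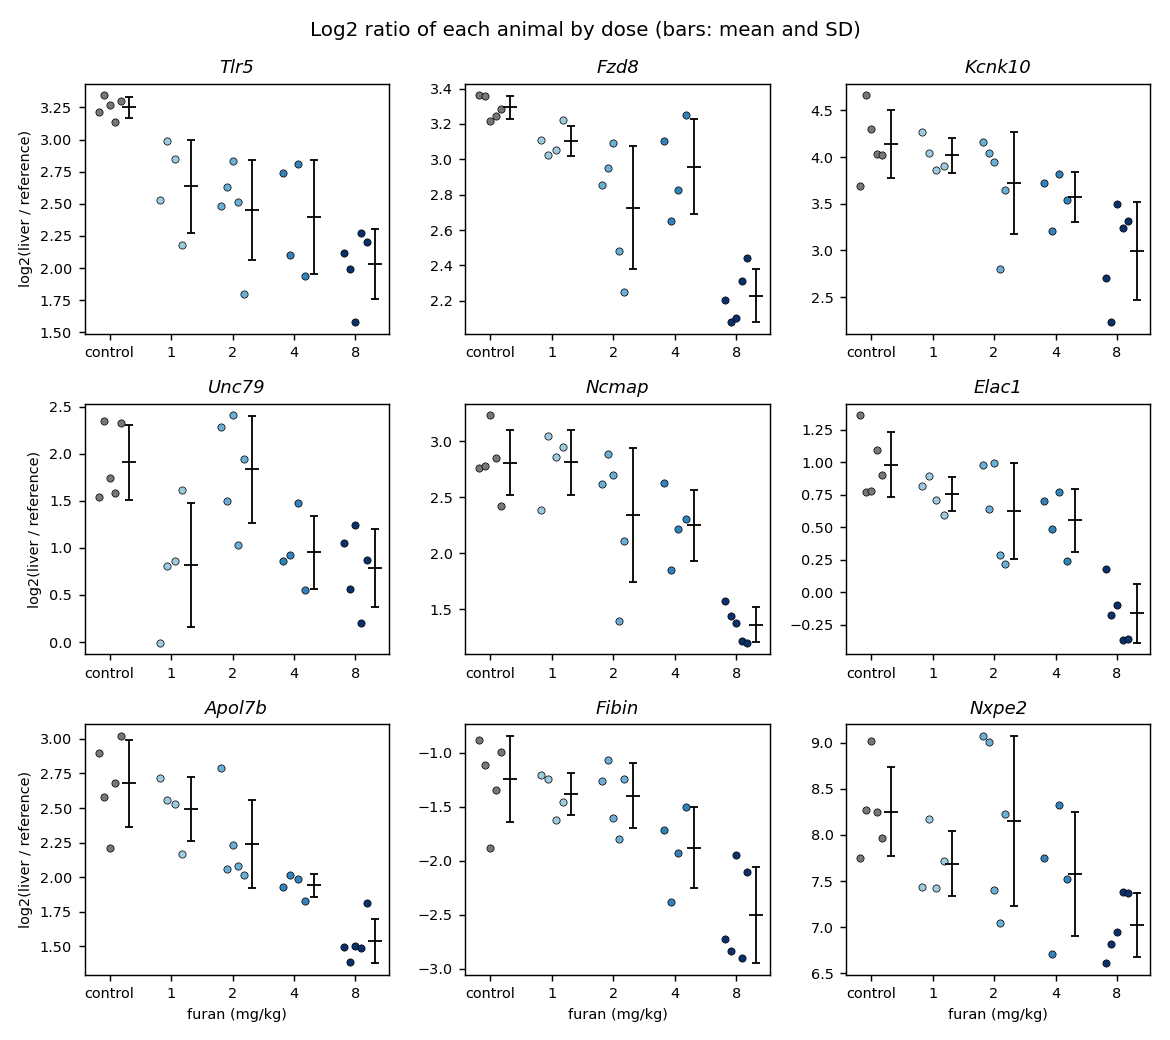
Log2 ratio of liver to reference for each of the 23 animals (points) in the control, 1, 2, 4 and 8 mg/kg groups, with the mean and SD of each group beside them, for the 9 genes. In all 9 panels the 8 mg/kg group has the lowest mean and lies wholly below the controls, while the 1 mg/kg group does not overlap the controls in Tlr5 alone.

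Tlr5, the flagellin receptor, stood apart from control at each dose and was lowest at the highest one. The ratios were 2.12, 1.99, 1.58, 2.27 and 2.20 at 8 mg/kg, against 3.22, 3.35, 3.27, 3.13 and 3.30 in controls. The controls spanned a narrow range (SD 0.08) and every treated animal lay below it. At 1 mg/kg the ratios were 2.53, 2.99, 2.85 and 2.18, and at 2 mg/kg 2.48, 2.63, 2.83, 2.51 and 1.80. At 4 mg/kg they were 2.74, 2.10, 2.81 and 1.94. From the lowest dose to the highest, the differences from control were -0.62 ± 0.21, -0.80 ± 0.20, -0.85 ± 0.21 and -1.22 ± 0.20. The difference at 1 mg/kg came to 50.6% of that at 8 mg/kg, and the treated groups overlapped one another.

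Fzd8 also had tight controls. Its ratios were 2.20, 2.08, 2.10, 2.31 and 2.44 at 8 mg/kg, against 3.36, 3.36, 3.22, 3.25 and 3.29 in controls, a difference of -1.06 ± 0.13. These 5 treated livers lay below all control, 1 and 4 mg/kg livers. At 2 mg/kg the ratios were 2.86, 2.95, 3.09, 2.48 and 2.25, with a mean below that at 4 mg/kg, so the order of the group means was not that of the doses. Replicate 5, which was rich in pancreatic transcripts, and replicate 4, which was rich in neutrophil transcripts, were the lowest 2 of that group. The differences from control at the 3 lower doses were -0.19 ± 0.14, -0.57 ± 0.13 and -0.34 ± 0.14, from low to high.

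Both channel genes were lower at 8 mg/kg, with unlike values at the lower doses. Kcnk10 had ratios of 2.70, 2.23, 3.50, 3.24 and 3.31 at 8 mg/kg, against 3.69, 4.66, 4.30, 4.03 and 4.02 in controls, a difference of -1.14 ± 0.25. Replicates 1 and 2 were the low ones at 8 mg/kg, and the highest of that group lay just under the lowest control. The group means of Kcnk10 stepped down from each dose to the next, and the 3 lower doses stood -0.12 ± 0.27, -0.42 ± 0.25 and -0.57 ± 0.27 from control, from low to high. Unc79 had ratios of 1.05, 0.56, 1.24, 0.20 and 0.88 at 8 mg/kg, against 1.54, 2.35, 1.75, 1.58 and 2.32 in controls, a difference of -1.12 ± 0.30. Its 1 mg/kg ratios of -0.01, 0.80, 0.86 and 1.61 were as low on average as those at 8 mg/kg. At 2 mg/kg Unc79 stood at 2.28, 1.5, 2.41, 1.03 and 1.94, which spanned the range of the controls and reached past both its ends. The Cy5 signal of Unc79 was well above background in 2 of 4 livers at 4 mg/kg and in all livers of the other groups.

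Ncmap had the largest fall of the 9. The ratios were 1.57, 1.44, 1.37, 1.21 and 1.20 at 8 mg/kg, against 2.76, 2.78, 3.23, 2.85 and 2.42 in controls, a difference of -1.45 ± 0.22. The groups were well separated, and the 8 mg/kg livers also lay below all 4 mg/kg livers. At 1 mg/kg Ncmap was at the control level, with a difference of 0.004 ± 0.24, and the differences at 2 and 4 mg/kg were -0.47 ± 0.22 and -0.56 ± 0.24. The lowest 2 mg/kg liver was replicate 4, at 1.40, where the other 4 livers stood between 2.11 and 2.88. The second Ncmap probe had a difference of -1.20 at 8 mg/kg and correlated with the first at 0.81 over the 23 arrays.

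Elac1 stood lower at each dose than at the one before, with the widest step between 4 and 8 mg/kg. Its ratios were 0.18, -0.17, -0.10, -0.37 and -0.36 at 8 mg/kg, against 1.36, 0.77, 0.78, 1.09 and 0.90 in controls, a difference of -1.14 ± 0.16. All 8 mg/kg livers lay below all livers of the other groups. From low to high, the 3 lower doses stood -0.23 ± 0.17, -0.36 ± 0.16 and -0.43 ± 0.17 from control, so that 37.4% of the fall at 8 mg/kg was present at 4 mg/kg.

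Apol7b stood lower at each dose than at the one before, in steps of -0.18, -0.26, -0.29 and -0.40 from control upward. Its ratios were 1.5, 1.39, 1.5, 1.49 and 1.81 at 8 mg/kg, against 2.90, 2.58, 2.21, 2.68 and 3.02 in controls, a difference of -1.14 ± 0.15. The 4 mg/kg livers, at 1.93, 2.02, 1.99 and 1.83, lay between these groups and overlapped neither. At 1 mg/kg Apol7b stood at 2.72, 2.56, 2.53 and 2.17, and at 2 mg/kg at 2.79, 2.06, 2.24, 2.08 and 2.02. Set against control, the 3 lower doses differed by -0.18 ± 0.16, -0.44 ± 0.15 and -0.74 ± 0.16, from low to high.

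Fibin, the only one of the 9 below the reference RNA in control liver, had ratios of -2.73, -2.84, -1.95, -2.90 and -2.11 at 8 mg/kg, against -0.88, -1.11, -1.88, -1.35 and -0.99 in controls. The difference was -1.26 ± 0.22, and control replicate 3 lay just above the highest 8 mg/kg liver. At 1 and 2 mg/kg Fibin differed from control by -0.14 ± 0.23 and -0.15 ± 0.22, and at 4 mg/kg by -0.64 ± 0.23, which was 50.5% of the fall at 8 mg/kg.

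Nxpe2 had bright Cy5 signal in all 23 livers, while its reference signal was well above background on 0 of 23 arrays. Its ratios therefore rest on a dim denominator, and the Cy5 values are given as well. The ratios were 6.61, 6.81, 6.94, 7.38 and 7.37 at 8 mg/kg, against 7.75, 8.27, 9.02, 8.25 and 7.97 in controls, a difference of -1.23 ± 0.36. The normalised Cy5 signal was 10.25, 10.09, 10.46, 9.64 and 9.95 on the log2 scale at 8 mg/kg, against 10.66, 11.38, 10.62, 10.65 and 11.17 in controls. Neither scale showed overlap, and the difference in Cy5 alone was -0.82. At 2 mg/kg the ratios ranged from 7.05 to 9.07, wider than in any other group.

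**Figure D2:**
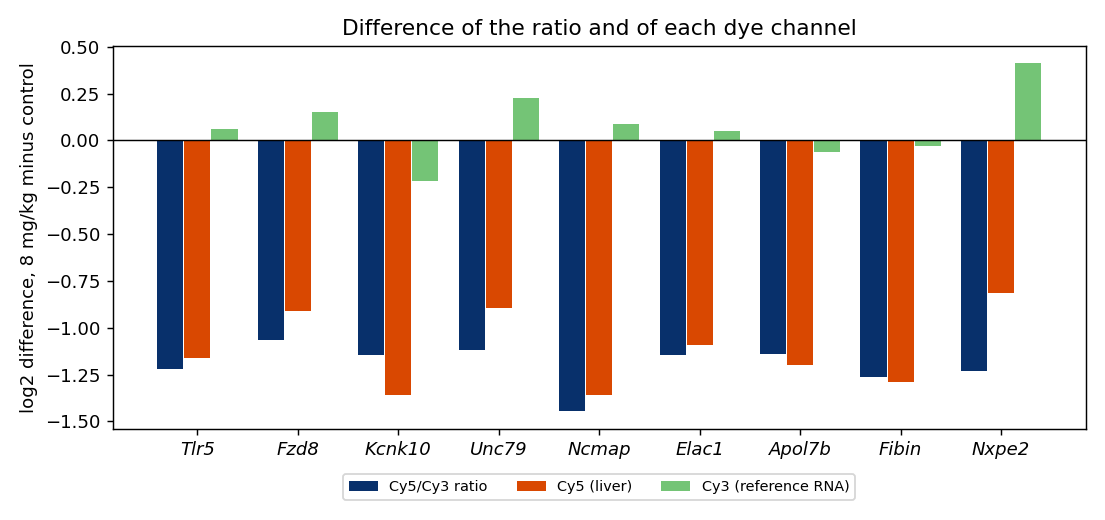
Log2 difference between 8 mg/kg and control for the Cy5 to Cy3 ratio, the Cy5 signal and the Cy3 signal of the 9 genes. The Cy3 bars stay within 0.1 of zero for Ncmap, Fibin, Tlr5, Elac1 and Apol7b, and reach 0.41 for Nxpe2.

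The ratio holds both dye channels, and each was also read alone. For Ncmap, Fibin, Tlr5, Elac1 and Apol7b the Cy3 channel moved by -0.060 to 0.087 between 8 mg/kg and control, and Cy5 alone moved by -1.09 to -1.36. Cy3 moved by -0.22 for Kcnk10, 0.15 for Fzd8, 0.22 for Unc79 and 0.41 for Nxpe2, beside Cy5 differences of -1.36, -0.91, -0.90 and -0.82. The size of the fall also depended on which signals were used. The median of the 9 was -1.14 with processed signals, -0.77 with uncorrected median signals and -0.73 with normexp on median signals. In the ratios of the deposited value table the falls came to -1.20 for Ncmap, -0.99 for Apol7b, -0.94 for Kcnk10, -0.82 for Fzd8, -0.79 for Elac1, -0.72 for Fibin, -0.72 for Tlr5, -0.65 for Nxpe2 and -0.57 for Unc79. With normexp they were smaller still for 8 of the 9, at -0.60 for Tlr5 and -0.50 for Unc79.

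Slide and scan time coincided on 5 slides, which crossed the dose groups. Within the 4 slides that held both groups, 8 mg/kg stood below control on 4 of 4 for all 9 genes. These are the arrays that chose the genes, so nothing is read from that count either. The within-slide differences ran from -0.93 to -1.77 for Tlr5, -1.02 to -2.02 for Ncmap, -0.72 to -1.46 for Apol7b and -0.81 to -1.25 for Fzd8. For Elac1 they ran from -0.87 to -1.45, for Fibin from -0.76 to -1.79, for Kcnk10 from -0.72 to -1.16, for Nxpe2 from -0.88 to -1.64 and for Unc79 from -0.70 to -1.54.

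**Figure D3:**
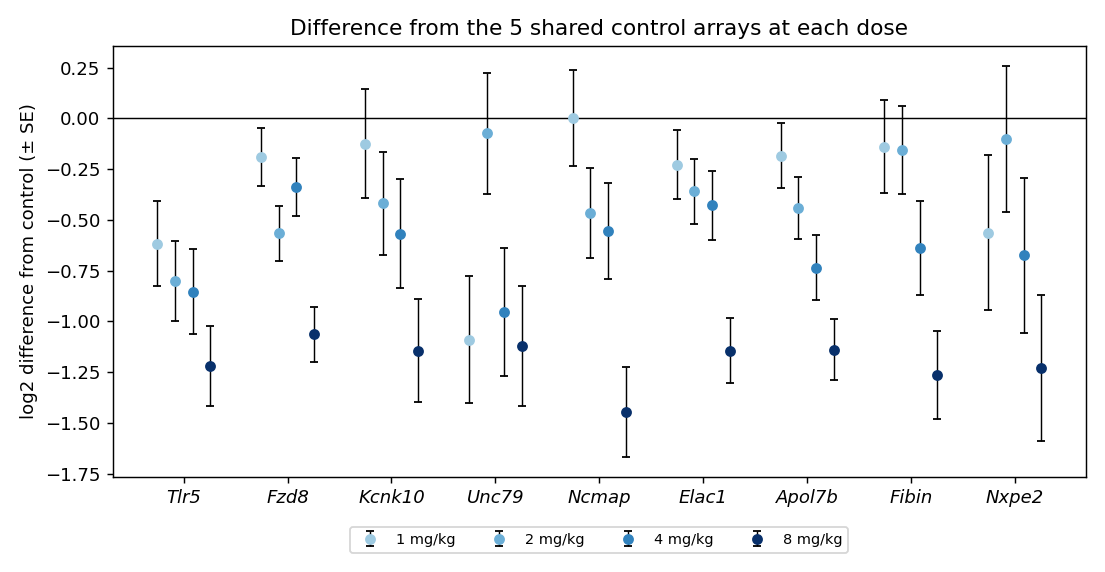
Log2 difference from control at 1, 2, 4 and 8 mg/kg for the 9 genes, with SE. All doses are set against the same 5 control arrays; 26 of the 27 points at 1 to 4 mg/kg lie below 0, and the 8 mg/kg point is the lowest of each gene.

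The lower doses share their 5 controls with the comparison that chose the genes, and the step to 8 mg/kg shares its 5 treated arrays, so these differences are given side by side and not as separate evidence. At 4 mg/kg all 9 lay below control, by -0.34 to -0.95, as did 55.4% of all genes, and Tlr5, Elac1, Apol7b and Unc79 did not overlap the controls (2.11% of all genes). At 2 mg/kg all 9 lay below, by -0.074 to -0.80, as did 52.3% of genes, and Tlr5 and Fzd8 did not overlap the controls (0.749%). At 1 mg/kg 8 lay below (53.9% of genes), Ncmap being the exception, and Tlr5 did not overlap the controls (0.854%). Group means stepped down at 4 of 4 dose steps for Tlr5, Fibin, Elac1, Apol7b and Kcnk10, and at 3 of 4 for Ncmap, Nxpe2, Unc79 and Fzd8. At the last step, the 8 mg/kg livers lay wholly below the 4 mg/kg livers for Ncmap, Elac1, Apol7b and Fzd8 (1.86% of all genes), a count favoured by the choice of the genes.

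Whether the genes also changed with dose was asked with the 13 livers at 1, 2 and 4 mg/kg. The values of these livers do not enter the difference by which the genes were chosen. They were not wholly apart from the choice, because the 9 genes were chosen with earlier results of these data known. The filter on signal above background also drew on arrays of every group. The slopes are therefore not fully independent of the choice. The slope on dose was below 0 for 9 of 9 genes, as it was for 52.7% of all genes, with a median of -0.078 log2 units per mg/kg. None of the 9 slopes passed the adjusted threshold (limma, adjusted p = 0.999), and 0% of all genes passed it in the lower direction; 1 gene passed in the higher one. At an unadjusted p under 0.05 there were 2 of the 9, Apol7b and Fibin, and 1.52% of all genes with a negative slope. The Apol7b slope was -0.18 ± 0.053 per mg/kg, with a 95% interval from -0.29 to -0.064. The Fibin slope was -0.18 ± 0.065, with a 95% interval from -0.32 to -0.039, and in the ratios of the deposited value table it was -0.079. The other 7 intervals included 0, from -0.16 ± 0.096 for Ncmap and -0.14 ± 0.082 for Kcnk10 to -0.021 ± 0.067 for Fzd8. In the deposited ratios the Kcnk10 slope was steeper, at -0.29. With the mean over both its probes the Ncmap slope was shallower, at -0.12.

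The median slope moved with the arrays and the fit. It was -0.14 with slide as a block, -0.12 with Cy5 alone and -0.12 without the arrays rich in pancreatic transcripts. Leaving out 4 mg/kg replicate 3 gave -0.15, and leaving out replicate 1 or replicate 3 at 1 mg/kg gave -0.12 each. Other omissions made it shallower. It was -0.056 without 4 mg/kg replicate 2, where 7 of 9 slopes were below 0, and -0.065 without 4 mg/kg replicate 4. At 2 mg/kg, leaving out replicate 1 gave -0.071 and leaving out replicate 2 gave -0.068. Without the arrays rich in pancreatic transcripts the slope was -0.22 for Ncmap, -0.12 for Tlr5, -0.057 for Fzd8 and 0.026 for Unc79.

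**Figure D4:**
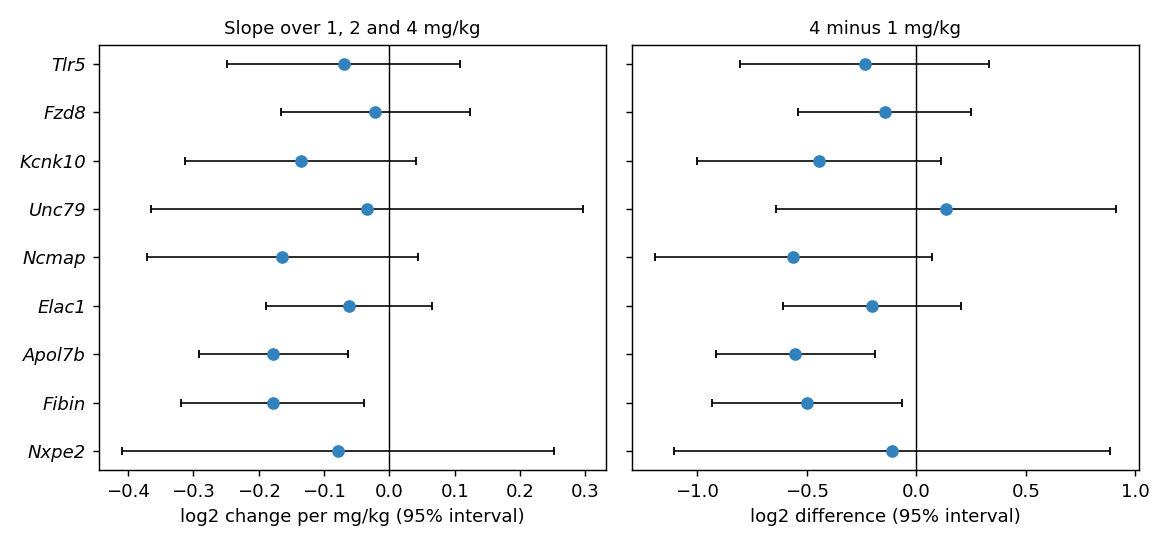
Left, slope of the log2 ratio on dose over the 13 livers at 1, 2 and 4 mg/kg; right, difference between 4 and 1 mg/kg from the same livers; bars are 95% intervals. The intervals of Apol7b and Fibin lie below 0 in both panels, and those of the other 7 genes include 0.

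Between the ends of that range, 4 mg/kg stood below 1 mg/kg for 8 of 9 genes, as for 51.9% of all genes, and none passed the adjusted threshold (limma, adjusted p = 0.9999; 0% of all genes in the lower direction). Apol7b averaged 1.94 ± 0.08 at 4 mg/kg and 2.49 ± 0.23 at 1 mg/kg (SD, n = 4 each), a difference of -0.55 ± 0.17. Fibin averaged -1.88 ± 0.38 at 4 mg/kg and -1.38 ± 0.19 at 1 mg/kg (SD, n = 4 each), a difference of -0.50 ± 0.20, which was -0.23 in the deposited ratios. These 2 were under an unadjusted p of 0.05, beside 1.56% of all genes in that direction. Apol7b and Kcnk10 did not overlap between the groups, as 1.33% of all genes did not. Ncmap differed by -0.56 ± 0.29 (95% interval -1.19 to 0.072), and its second probe by -0.24. Unc79 ran the other way, by 0.14 ± 0.36 (95% interval -0.64 to 0.91), and its 2 mg/kg mean stood 1.02 ± 0.34 above that at 1 mg/kg (limma, adjusted p = 0.719). Between neighbouring doses, 2 mg/kg was below 1 mg/kg for 7 of 9 genes (48.1% of all genes), and 4 mg/kg below 2 mg/kg for 8 of 9 (53.9%). On the 3 slides that held both doses, 4 mg/kg was below 1 mg/kg on 3 of 3 for 7 genes and on 1 of 3 for Fzd8 and Unc79. The share of all genes was not computed within slides, so this count is a description only. Apol7b differed by -0.33 to -0.63 within slides. Replicate 2 at 4 mg/kg was low for several of the 9: without it the difference was 0.18 for Nxpe2, whose slope became 0.038, and the slope of Fzd8 became 0.0051.

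Deviations of single animals from their group were compared among the 9 genes. After each group's mean was removed, the 36 pairs of genes correlated with a median of 0.24 over the 23 arrays, and 33 of 36 were above 0. Over the 13 arrays at 1 to 4 mg/kg the median was 0.36, from -0.14 for Fibin with Unc79 to 0.76 for Ncmap with Kcnk10. These points share arrays and normalisation, and slide was not removed. Deviations of arrays on 1 slide correlated at a median of 0.22 (41 pairs). The share of pairs above 0 was not computed over all genes, so these counts are a description only. Averaged over the 9 genes, after centring each, the lowest livers at the middle doses were replicate 2 at 4 mg/kg, at -0.43, and replicate 4 at 2 mg/kg, at -0.40. At 8 mg/kg the average ran from -0.88 to -0.52, and in controls from 0.45 to 0.62. The neutrophil score of replicate 4 at 2 mg/kg was the highest of all arrays, and that of replicate 2 at 4 mg/kg was -0.17. Without the pancreas-rich arrays and the neutrophil-rich one, 8 of 9 slopes and 8 of 9 differences between 4 and 1 mg/kg stayed below 0.

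The genes whose profile over the 23 arrays was most like the average of the 9 were Emp2 (Pearson r = 0.929), Dolk (0.928), Zfp467 (0.919), Auh (0.913) and Lsm10 (0.902). Over the 13 arrays they were Gbp4 (0.890), Eif4a2 (0.882), Uqcc3 (0.867), Cmpk2 (0.863) and 1190005I06Rik (0.861). None stood in both sets of 5. Over the 23 arrays r was 0.338 for Gbp4 and -0.126 for Cmpk2. It was 0.884 for Eif4a2, 0.617 for Uqcc3 and 0.897 for 1190005I06Rik. Each set holds the highest values out of all tested genes with a symbol. How high such values come by chance over 13 arrays was not computed. The average over 23 arrays holds the gap between 8 mg/kg and control that chose the 9. Likeness over 23 arrays therefore follows in part from that choice. Emp2, a membrane protein of the peripheral myelin protein family, differed by -0.83 between 8 mg/kg and control, and Gbp4, an interferon-induced GTPase, by -0.054.

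**Figure D5:**
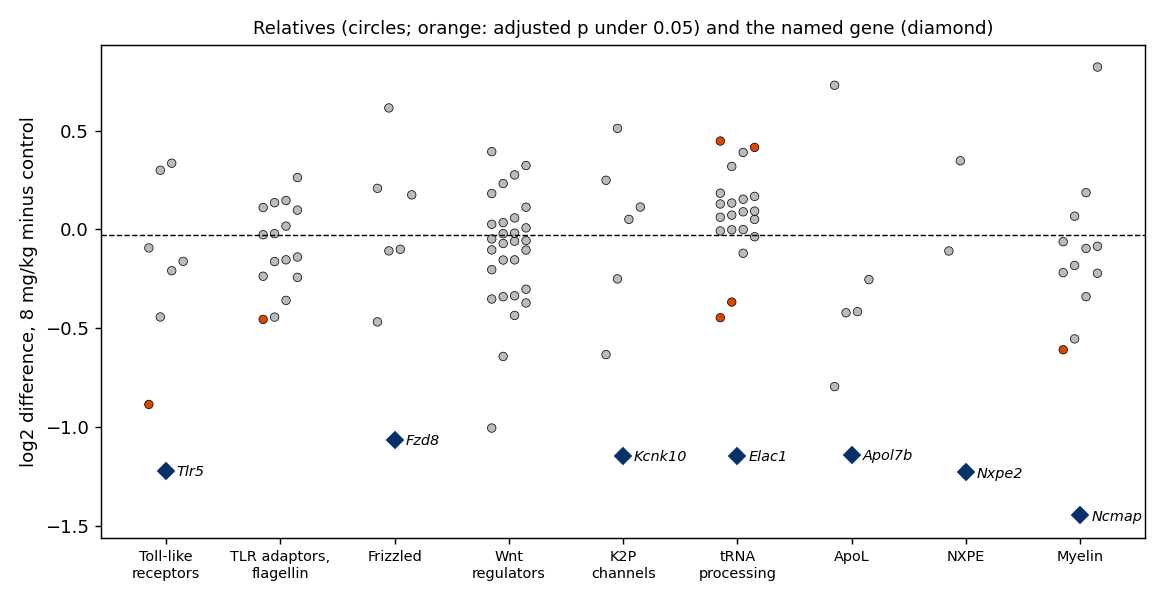
Log2 difference between 8 mg/kg and control for the tested relatives and pathway partners of 7 of the 9 genes (circles, orange where the adjusted limma p was under 0.05) and for the genes themselves (diamonds). The dashed line is the median of all genes, -0.027. Each diamond lies below all circles of its column. The same comparison chose the 9 genes, so nothing is read from that order.

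Relatives and partners of the 9 were read from lists of known families, and 8.01% of all genes were called at 8 mg/kg in either direction. Because this comparison chose the 9, nothing is read from their falling further than their relatives. Of 7 other Toll-like receptors tested, 1 fell: Tlr12, which senses a protozoan profilin in mice, averaged 3.54 at 8 mg/kg and 4.43 in controls, a difference of -0.89 ± 0.15 (limma, adjusted p = 0.00112). Tlr4, the receptor for lipopolysaccharide, differed by -0.094 ± 0.23. Of 16 adaptors and other flagellin or lipopolysaccharide sensing genes, 1 fell, Lbp, which carries lipopolysaccharide in plasma, by -0.46 ± 0.13 (limma, adjusted p = 0.0389). The Lbp call was lost in 7 of 13 alternatives, with an adjusted p of up to 0.235 (0.0746 without the arrays rich in pancreatic transcripts). Myd88 differed by -0.14 ± 0.10.

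None of 6 other Frizzled receptors passed at 8 mg/kg (limma), Fzd4 coming nearest with -0.47 ± 0.15 (adjusted p = 0.0655). None of 29 Wnt coreceptors, regulators and targets passed, and their median difference was -0.060. Wif1, a secreted Wnt inhibitor, had the largest difference, -1.0 ± 0.45 (limma, adjusted p = 0.196). Of 6 other two-pore-domain channels none passed, and Kcnk5 differed by -0.63 ± 0.29 (limma, adjusted p = 0.217). Of the 6 listed partners of Unc79 in the NALCN complex, 3 had a probe and 0 were bright enough to be tested.

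Of 21 genes of transfer RNA processing and repair tested beside Elac1, 2 fell and 2 rose. Ankzf1, which in human cells cuts the transfer RNA that Elac1 then repairs, averaged -0.19 at 8 mg/kg and 0.26 in controls, a difference of -0.45 ± 0.08 (limma, adjusted p = 9.5e-04). Tsen34, a subunit of the splicing endonuclease, differed by -0.37 ± 0.10 (limma, adjusted p = 0.0211), a call lost in 6 of 13 alternatives. Another subunit of that enzyme, Tsen15, differed by 0.41 ± 0.08 (limma, adjusted p = 0.00193), and Pop1 of RNase P by 0.45 ± 0.11 (limma, adjusted p = 0.0117). Elac2, the longer enzyme of Elac1's family, differed by -0.002 ± 0.09.

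None of 5 other apolipoprotein L genes passed, although their median difference was -0.42. Apol7c differed by -0.79 ± 0.44 (limma, adjusted p = 0.318) and Apol7a by -0.25 ± 0.12 (limma, adjusted p = 0.246), while Apol10a was higher at 8 mg/kg by 0.73 ± 0.52 (limma, adjusted p = 0.480). Members of this family are near-identical copies in part, so that their probes may share targets. Both tested relatives of Nxpe2, Nxph3 and Nxph4, missed the threshold.

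Of 12 other myelin genes tested, 1 fell, Cnp, an enzyme of myelin that is made in other cells too. Cnp averaged 1.35 at 8 mg/kg and 1.96 in controls, a difference of -0.61 ± 0.12 (limma, adjusted p = 0.00342). Another gene of the list was higher, by 0.82 ± 0.25, and just missed the threshold (limma, adjusted p = 0.0507). Of the Schwann cell and nerve markers in control livers, S100b was well above background on 0 of 5 arrays, while Sox10, Mbp and Pmp22 were above it on 5 of 5. The mean Schwann cell score ran from -0.50 to 0.06 at 8 mg/kg and from -0.26 to 0.52 in controls, and its part in the fall of Ncmap was not tested. In none of these lists did a gene pass the threshold for the slope over 1 to 4 mg/kg or for 4 against 1 mg/kg (limma).

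The genes next to the 9 on their chromosomes were looked up as well. Of 18 neighbours 13 were tested, and 0 were called at 8 mg/kg in either direction (limma). Spata7, beside Kcnk10, differed by -0.45 ± 0.21 and Apol9a, beside Apol7b, by -0.42 ± 0.17. Smad4 and Me2, which flank Elac1, differed by 0.002 ± 0.08 and 0.24 ± 0.22, and Susd4 and Disp1, which flank Tlr5, by -0.060 ± 0.16 and -0.19 ± 0.23.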

How the data were processed

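Liver RNA of 23 female mice was hybridised on 2-colour arrays, per the labels, with the liver sample in Cy5 and the universal reference in Cy3. Spots were quantified by the authors with Agilent Feature Extraction 10.7.3.1, per the file headers. The deposited scanner files give intensity per spot: processed signals, already corrected by that software for background and dye, and raw medians with local background, per the file headers. Columns of 0 and 1 marks (another kind of deposited value) note signal above background, saturation and outliers, per the file headers. A deposited table gives the authors' ratio of Cy5 to Cy3 for each probe. On the log2 scale it lay closest to a loess of uncorrected medians (correlation 0.995 to 0.996), and its normalisation is not given in the sources used here. The probe design was annotated on mm9, and no coordinates of the files were used.

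Log2 ratios of processed signals were corrected by loess within each array (span 0.3, 4 iterations) in R 4.3.3 with limma 3.58.1. Control and marked spots were left out and spots of a probe averaged. Probes well above background in Cy5 on at least 4 arrays of 1 group were kept, 25576 of 55681. Names came from matching 26421 probes to 20022 RefSeq symbols. The brightest probe stood for its gene, and 19899 genes were tested, 12928 of them with a symbol. All 9 genes described passed this filter.

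Group means were fitted over all 23 arrays, and the slope and the differences among 1, 2 and 4 mg/kg over 13 arrays alone (lmFit and eBayes, two-sided, Benjamini-Hochberg over all genes, threshold 0.05). The labels call the arrays biological replicates, and the main fits held no term for slide. The p-values therefore rest on the spread between animals together with that between slides. The number of arrays limits the precision. The code was tested on simulated data.

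The 9 genes, the related lists and the marker lists were chosen with earlier results of these data known. Named genes were the 9, their neighbours in the order of falls, the 5 most alike genes over 23 and over 13 arrays, and list members that passed a test or define their list. Genes in the related lists with values given beside these, the chromosomal neighbours and the comparison of dye channels were chosen after values were seen. Marker lists covered hepatocytes, cholangiocytes, endothelium, macrophages, stellate cells, Schwann cells, T and NK cells, B cells, neutrophils, pancreas, erythrocytes and adipose tissue; at 8 mg/kg Cnp, of the Schwann cell list, was the only marker called. Single values of some markers are not reported here. Replicate numbers did not pair the samples: deviations of same-numbered arrays correlated at -0.24 to 0.40 (median 0.02, 43 pairs), and those on 1 slide at 0.03 to 0.50 (median 0.22, 41 pairs). Alternatives covered background correction, normalisation, channel, filter, probe choice, slide, replicate number and left-out arrays. The series text counts more animals than the 23 arrays; the others were not analysed here.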

Additional observations from a re-analysis of the deposited data

Results flagged for a closer look

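In 45 combinations of gene and group with 4 or 5 animals, 2 had an animal set apart from its group by Dixon's criterion, which chance meets in about 1 group in 20. Both concern Apol7b. Replicate 1 at 2 mg/kg had a log2 ratio of 2.79, where the next highest animal of its group had 2.24; this array was rich in pancreatic transcripts. Replicate 5 at 8 mg/kg had a log2 ratio of 1.81, where the next highest had 1.5; this array too was rich in them. The remaining pancreas-rich arrays were not high for Apol7b. Replicate 5 at 2 mg/kg was the lowest of its group, at 2.02, and replicate 1 at 4 mg/kg stood within its group, at 1.93. The part of pancreatic transcripts in these values was not tested. Without the 4 pancreas-rich arrays the difference of Apol7b between 8 mg/kg and control was -1.21, against -1.14 with them.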

How the results depend on the processing

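For the slope over 1, 2 and 4 mg/kg, 0 of the 9 genes passed in any of 14 alternatives, and 1 gene of all passed as first fitted. That count was 0 with uncorrected medians, normexp, Cy5 alone, the deposited table, no filter, the replicate block, log2 dose, the spread of all 23 arrays, or without the pancreas-rich arrays, with or without the neutrophil-rich one (chosen after seeing the data), and 2 with slide as a block; leaving out single arrays gave 0 to 1. For 4 against 1 mg/kg, 0 of the 9 passed and 1 gene of all, which became 0 in 11 of 13 alternatives, and 0 to 1 without single arrays. The slope of 8 to 9 of the genes was below 0 in the alternatives, and of 7 to 9 without single arrays.

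At 8 mg/kg against control, 1593 genes were called, against 1013 with uncorrected medians, 1009 with normexp, 931 in the deposited table, 930 without filter, 1039 with 10 arrays and 2326 with slide as a block (1155 to 1784 without single arrays). Those called lower numbered 374, 309, 351, 411, 471 and 1143 in the same order, 406 without loess, and 491 to 867 without single arrays, the lowest without replicate 4 at 8 mg/kg. All 9 genes stayed below control in 13 alternatives, of which Aquantile leaves the ratios as they were by construction. The same comparison chose the 9 genes, so nothing is read from their staying below. Without single arrays Lbp lost its call in 9 cases (controls 1 to 4, all 8 mg/kg) and Tsen34 without 8 mg/kg replicate 3. With the replicate block 1521 genes were called, 736 lower. Of the 27 differences from control at 1 to 4 mg/kg, 26 were below 0, and 22 to 27 in the alternatives.

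Signs turned in a few small values, and the cause was not tested. For Unc79, 4 minus 1 mg/kg was -0.068 with uncorrected medians, -0.059 with normexp, -0.075 in the deposited table and -0.12 with slide as a block (-0.14 to 0.40 without single arrays). Its slope was 0.045 with Cy5 alone, 0.026 without the pancreas-rich arrays, 0.068 per log2 step of dose and 0.025 without the neutrophil-rich array too (-0.14 to 0.040 without single arrays). Without single arrays the Fzd8 slope ran from -0.065 to 0.0051, the Nxpe2 slope from -0.15 to 0.038 and the Nxpe2 difference from -0.36 to 0.18. The arrays whose removal turned a sign were 4 mg/kg replicate 2 for Fzd8 and Nxpe2, 1 mg/kg replicate 4 for Fzd8, 1 mg/kg replicate 2 for Nxpe2, and 1 mg/kg replicate 1 and 4 mg/kg replicates 1, 3 and 4 for Unc79. Signal over background limits the values of Unc79 and the reference channel of Nxpe2.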
